A study of Mus musculus with 6 samples.

Results

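The 34 genes described here encode the machinery that moves fatty acids into mitochondria and peroxisomes and oxidises them, together with 2 ketone body enzymes and 4 liver genes that respond to fasting. They were chosen by name for their roles, with earlier results of these data known, and make up 34 of the 16426 genes listed in at least 1 library. Each was listed in all 6 libraries and passed the filter on low counts. The livers came from male mice on a mixed B6:sv129 background, 7 to 12 weeks old. All had received AAV8 through the tail vein and, per the series text, dexamethasone in the drinking water for 7 days at about 0.84 mg/kg. For 3 livers the AAV8 carried a scrambled shRNA and for 3 an shRNA against S1pr2, the gene of sphingosine-1-phosphate receptor 2 (called scramble and knockdown livers here, always listed in the order 1 to 3). There was no group without dexamethasone and only 1 hairpin against S1pr2, so its action on S1pr2 cannot be told apart from other effects of that hairpin. The labels do not say that the replicates are separate animals, so p-values measure the spread between these samples, which may be technical.

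Long-chain fatty acids enter mitochondria as carnitine esters: Cpt1a, on the outer membrane, makes the ester, Slc25a20 carries it across the inner membrane and Cpt2 returns it to CoA. Each round of beta-oxidation then takes the acyl-CoA through dehydrogenation, hydration, a further dehydrogenation and thiolysis, and the electrons of the first step pass through the electron transfer flavoprotein to the respiratory chain. Peroxisomes shorten very long and branched chains and hand the products over as carnitine esters, and in the fasting liver much of the acetyl-CoA formed in mitochondria becomes ketone bodies. Many of these genes are known targets of PPARA, the fatty acid receptor of the hepatocyte nucleus.

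S1pr2 (gene 14739) measured 4.41, 5.23 and 6.66 CPM in the scramble livers and 3.04, 2.20 and 2.22 CPM in the knockdown livers, where CPM are read counts relative to the library's total after TMM scaling (edgeR's trimmed mean normalisation). These values rest on 36 to 110 expected counts a library. S1pr2 fell by 54.0% (log2 fold change -1.12 ± 0.24 (SE), adjusted p = 0.0301 in edgeR), and the groups did not overlap. The call was lost on log2(FPKM + 0.1) and log2(FPKM + 1) (log2 differences -0.90 and -0.54, adjusted p = 0.0661 and 0.0677 in limma) and with a replicate block (0.0684 in edgeR). The adjusted p was 0.0785 and 0.0962 without scramble livers 2 and 3, and 0.117 and 0.101 without knockdown livers 2 and 3. The exact two-sided permutation test of the means gave p = 0.1, the smallest that 3 livers against 3 allow. The libraries held 16558775 to 17410160 expected counts, and 937 of 12230 tested genes changed at an adjusted p under 0.05. The TMM factors were 0.968, 0.924 and 0.957 in the scramble livers and 1.154, 0.987 and 1.027 in the knockdown livers. CPM are divided by these factors, so the scaling lowers every knockdown liver relative to the scramble livers. Hepatocyte markers summed to 140347, 157438 and 169395 CPM in the scramble livers and 91147, 136127 and 131183 CPM in the knockdown livers, with none of 11 tested markers changed. Alb made up most of these sums, at means of 113596 CPM in the scramble and 75486 CPM in the knockdown livers. Alb and Apob were lower in every knockdown liver and Apoa1 was higher, and the groups overlapped for the other 8 markers. Endothelial markers, of which 5 of 10 rose (50.0%, against 3.02% of all tested genes), summed to 241 to 269.7 CPM in the scramble and 301 to 329 CPM in the knockdown livers. With 1 liver left out, the highest adjusted p of these 5 was 0.104 to 0.160 in edgeR. Lyve1 went the other way, from a mean of 19.5 to 10.9 CPM, with overlapping groups (log2 fold change -0.83 ± 0.36 (SE), adjusted p = 0.227 in edgeR). None of 9 macrophage, 10 stellate and fibroblast or 5 cholangiocyte markers tested changed. Their sums ranged from 106 to 184, from 212 to 546 and from 27.7 to 54.6 CPM in the scramble livers, and from 137 to 271, from 324 to 598 and from 45.3 to 105 CPM in the knockdown livers, each highest in knockdown liver 1. Of 6 adipocyte markers found, Adipoq, Plin1, Cfd and Retn were at or below 0.245 CPM in every liver. Fabp4 measured 17.2, 7.78 and 10.95 CPM in the scramble livers and 7.69, 6.06 and 6.85 CPM in the knockdown livers, lower in every knockdown liver (log2 fold change -0.80 ± 0.28 (SE), adjusted p = 0.13 in edgeR), and Plin4 reached at most 10.8 CPM, in scramble liver 1. Their summed level ranged from 10.6 to 28.4 CPM in the scramble and from 10.5 to 13.001 CPM in the knockdown livers, and skeletal muscle markers summed to at most 0.98 CPM in a liver. The part of cell makeup in the values below was not tested, and in whole liver fewer cells of a type and less RNA per cell cannot be told apart.

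Of the 34 fatty acid oxidation genes, 1 rose in the knockdown livers, none fell and 33 did not pass the edgeR test (9 called by DESeq2). An unadjusted p under 0.05 was found in 12 of the 34 (35.3%), against 24.5% of all genes tested. The share called was 2.94%, against 7.66% of all genes tested; 3.02% of all genes rose and 4.64% fell. The 1 gene that passed was Crot, the peroxisomal carnitine octanoyltransferase. The median log2 fold change of the 34 was -0.10, against 0.01 for all tested genes, with 11 genes above 0 and 23 below. The median absolute change was 0.26, against 0.23 for all tested genes. A change of at least 0.5 on the log2 scale was seen in 7 of the 34 (20.6%), against 21.3% of tested genes.

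The groups of livers did not overlap in 13 of the 34 (38.2%), against 31.9% of all tested genes. In 11 of the 34 (32.4%) every knockdown liver lay below every scramble liver, against 16.8% of all tested genes, and in 2 (5.88%) every knockdown liver lay above, against 15.1%. Other lists, described below, differed in direction. Every knockdown liver lay below in 7 of 16 peroxisome biogenesis genes and 6 of 18 regulators, and above in 1 and 0 of them. Of 20 further mitochondrial oxidation genes, 7 were higher in every knockdown liver and 2 lower. Of 17 further peroxisomal oxidation genes, 2 were higher and 1 lower. A lean to lower values was thus neither particular to the 34 nor shared by other oxidation genes. The split of the 34 also depended on the scaling. On the deposited FPKM, scaled to length and mapped fragments, 5 members were lower in every knockdown liver (14.7%, against 7.76% of 13162 genes whose FPKM averaged 0.1 or more) and 5 were higher (14.7%, against 24.7%). The FPKM scale moved the median of all genes to 0.16 on log2(FPKM + 0.1) and that of the members to 0.07. Relative to the median of all genes, the members' median was -0.11 with TMM, -0.09 on that FPKM scale and -0.04 on log2(FPKM + 1). With TMM it was -0.08 without scramble liver 1, -0.18 and -0.16 without scramble livers 2 and 3, and -0.03, -0.20 and -0.09 without knockdown livers 1, 2 and 3, so single livers moved it by more than 1.5 times.

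**Figure D1:**
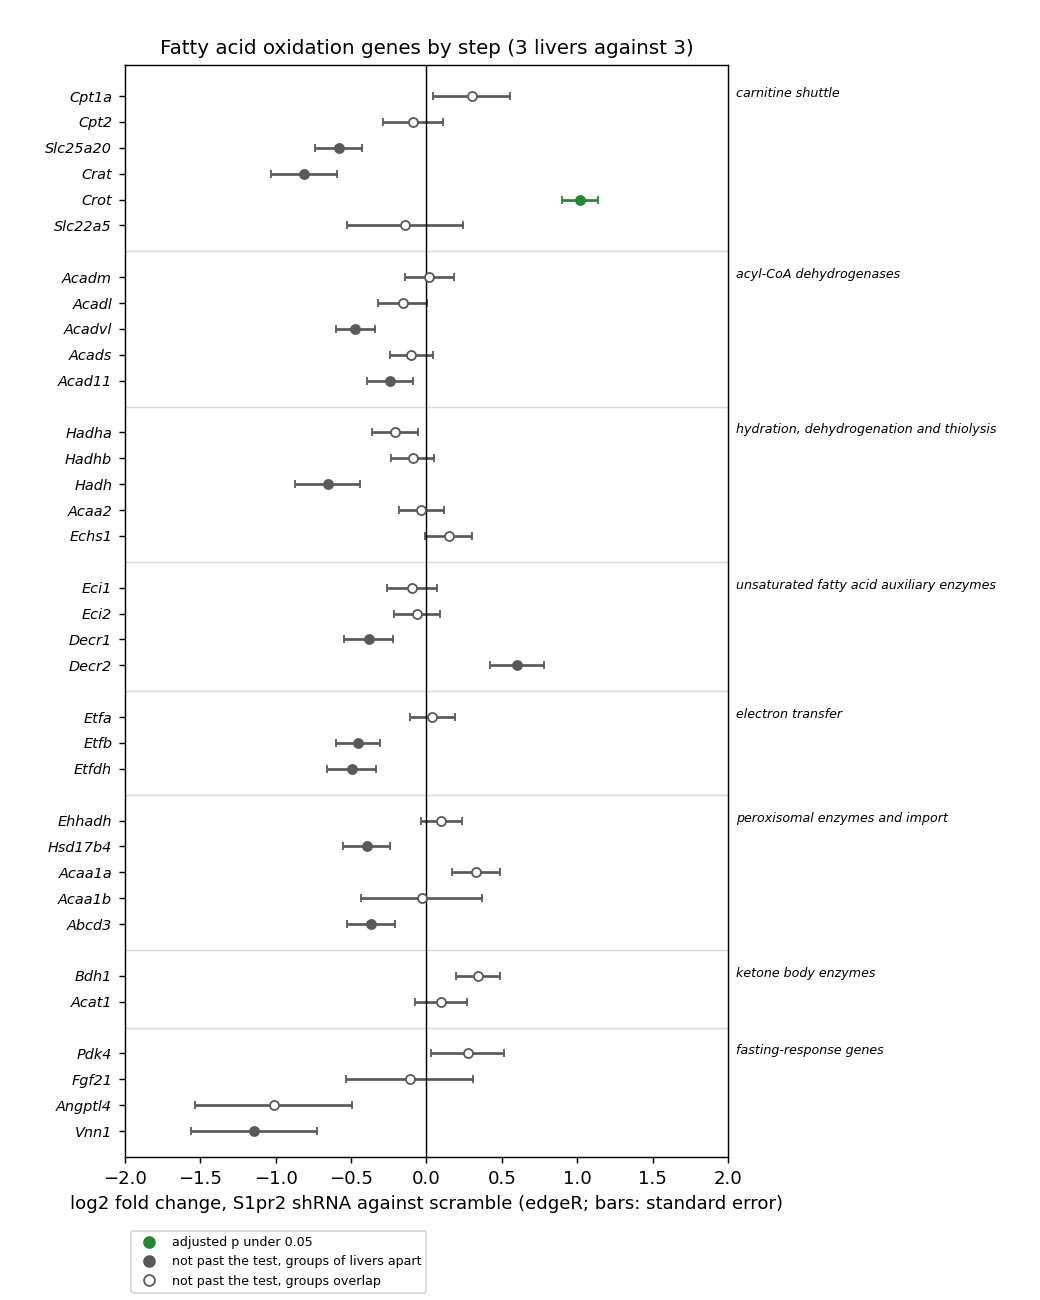
Log2 fold change of each of the 34 fatty acid oxidation genes in knockdown against scramble livers, ordered by step. Bars are standard errors from the edgeR fit, not confidence intervals. Crot, at 1.02, was the 1 gene past the adjusted p threshold, and all other genes except Crat, Decr2, Angptl4 and Vnn1 lay between -0.66 and 0.34.

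The carnitine shuttle held the 1 member that passed the test. Crot, which turns medium-chain acyl-CoA made in peroxisomes into carnitine esters for export, measured 118, 108 and 101 CPM in the scramble livers and 204, 229 and 228 CPM in the knockdown livers. The lowest knockdown liver stood at 1.73 times the highest scramble liver, and the 3 livers of each group lay close together. Means were 109 ± 8.40 CPM (SD, n = 3) in the scramble and 220.3 ± 14.1 CPM (SD, n = 3) in the knockdown livers, a 2.02-fold rise (log2 fold change 1.02 ± 0.12 (SE), adjusted p = 0.00531 in edgeR). On FPKM the means were 36.6 and 81.9 FPKM, and Crot moved from rank 25 to rank 17 among the 34 genes by level per length. It passed the test under all 16 alternative analyses. In the GENCODE M21 annotation its exons overlap Gm37153 on the opposite strand, a gene that did not pass the filter on low counts.

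Among the other members only Decr2, the peroxisomal dienoyl-CoA reductase for unsaturated chains, was higher in every knockdown liver on the TMM scale. Its values were 67.6, 45.5 and 46.1 CPM in the scramble livers and 68.8, 90.8 and 82.1 CPM in the knockdown livers. Scramble liver 1 and knockdown liver 1 were almost level, and the remaining livers stood well apart. Decr2 was 1 of 7 members with fractional expected counts in all 6 libraries, so its assignment of reads is uncertain. The others were Slc22a5, Acad11, Eci1, Pdk4, Acaa1a and Acaa1b. The difference did not pass the edgeR test (log2 fold change 0.60 ± 0.18 (SE), adjusted p = 0.088 in edgeR), whereas it passed without scramble liver 1 (log2 fold change 0.81, adjusted p = 0.0276). On deposited FPKM the means were 24.6 and 41.0 FPKM. Promoter sequence was looked up in a RefSeq table on GRCm38.p6 (250 bases before each gene start, both strands), which held 27 of the 34 members (not Acaa2, Acat1, Angptl4, Crat, Decr1, Hsd17b4 and Vnn1). The GC box GGGCGG, the core letters bound by Sp-family factors, was in the promoters of 18 of the 27 (66.7%), Crot and Decr2 among them, against 62.6% of the 9634 tested genes in the table. These 2 genes are shown because they were the ones higher in every knockdown liver. The first Crot box, 142 bases before the gene start, lies in the 30 bases of chr5:8997271-8997300, and the second, 49 bases before it, in chr5:8997178-8997207. The Decr2 boxes, 153 and 22 bases before the start, lie in chr17:26090300-26090329 and chr17:26090169-26090198. GENCODE M21 has transcripts of both genes that start inside the 250-base window. Both genes are on the minus strand, sequences run 5′ to 3′ on that strand, and capitals mark the box.
Crot, first box: agaacccggcggGGGCGGgaccagcaagcc
Crot, second box: ccgacgcgcacaGGGCGGgaccctcgcggt
Decr2, first box: gcgcgccaccgaGGGCGGggtgtccgcctg
Decr2, second box: cccccgtctgatGGGCGGcttgatgtgggg
The PPARA and RXR element, read as 2 copies of AGGTCA in one direction with any 1 base between, matched none of the 27 windows and 0.0519% of those of tested genes. This exact string was in only 5 of the 9634 tested genes, so its absence from 27 windows cannot show that members lack the element. The single repeat AGGTCA, which lies within that element, was in 4 of the 27 (14.8%; Acadm, Acadvl, Cpt1a and Echs1), against 13.6% of tested genes. These matches describe letters only.

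The other shuttle members had values that did not pass the test. Cpt1a, the malonyl-CoA-regulated entry step, measured 205, 110.1 and 109 CPM in the scramble livers and 154, 194 and 173 CPM in the knockdown livers. The knockdown livers lay between scramble liver 1 and the other two scramble livers, so the groups overlapped (log2 fold change 0.30 ± 0.26 (SE), adjusted p = 0.537 in edgeR). Without scramble liver 1 the log2 fold change was 0.67 with an adjusted p of 0.0443. Over all fits with 1 liver left out, it ranged from 0.14 to 0.67, with an adjusted p of up to 0.825 in edgeR. Cpt2, the inner-membrane partner, measured 164, 117 and 100.5 CPM in the scramble livers and 105, 140.4 and 114 CPM in the knockdown livers, also overlapping (log2 fold change -0.09 ± 0.20 (SE), adjusted p = 0.839 in edgeR). Slc25a20, the carnitine-acylcarnitine carrier between them, measured 129, 87.7 and 96.2 CPM in the scramble livers and 64.9, 74.0 and 70.4 CPM in the knockdown livers. Every knockdown liver was below every scramble liver (log2 fold change -0.58 ± 0.16 (SE), adjusted p = 0.0626 in edgeR), on FPKM as well (means 55.7 and 41.1 FPKM).

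Crat, the carnitine acetyltransferase that buffers acetyl-CoA, measured 109, 56.6 and 75.5 CPM in the scramble livers and 46.3, 46.1 and 44.9 CPM in the knockdown livers. The 3 knockdown livers differed from each other by at most 1.43 CPM, whereas the scramble livers spread widely (log2 fold change -0.81 ± 0.22 (SE), adjusted p = 0.0691 in edgeR). Without scramble liver 2 the log2 fold change was -1.02, with an adjusted p of 0.0275. Over all fits with 1 liver left out, it ranged from -1.02 to -0.53, with an adjusted p of up to 0.188 in edgeR. On FPKM the groups of Crat overlapped. Slc22a5, the plasma membrane carnitine transporter, measured 34.2, 12.4 and 15.01 CPM in the scramble livers and 19.7, 19.4 and 16.7 CPM in the knockdown livers, with scramble liver 1 above the rest (log2 fold change -0.14 ± 0.38 (SE), adjusted p = 0.864 in edgeR). In GENCODE M21, 7 members overlap exons of a tested gene on the opposite strand: Crat with Dolpp1, Acadvl with Dvl2, Acad11 with Ackr4, Echs1 with Paox, Etfdh with 4930579G24Rik, Acaa1a with Myd88 and Acaa1b with Dlec1. The strand handling of the counts is not known here, so reads of such pairs may not be separated.

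Of the 5 acyl-CoA dehydrogenases, which catalyse the first step for chains of different length, none passed the test and the median log2 fold change was -0.16. Acadvl, for very long chains, measured 316, 307 and 329.8 CPM in the scramble livers and 204, 246 and 238 CPM in the knockdown livers. The scramble livers lay within 22.5 CPM of each other and all above the knockdown livers (log2 fold change -0.47 ± 0.13 (SE), adjusted p = 0.0653 in edgeR). The FPKM groups did not overlap either (means 136 and 109 FPKM). Acadm, for medium chains, measured 380.3, 290.0 and 299 CPM in the scramble livers and 287, 364 and 333 CPM in the knockdown livers and overlapped, at a log2 fold change of 0.02 (adjusted p = 0.956 in edgeR). Acadl, for long chains, measured 182, 150.4 and 155 CPM in the scramble livers and 116, 167 and 154 CPM in the knockdown livers (log2 fold change -0.16 ± 0.16 (SE), adjusted p = 0.611 in edgeR). Acads, for short chains, measured 125, 130.3 and 118 CPM in the scramble livers and 93.6, 129 and 125 CPM in the knockdown livers (log2 fold change -0.10 ± 0.14 (SE), adjusted p = 0.728 in edgeR). The groups overlapped for both. Acad11, a further family member, measured 423, 324 and 332 CPM in the scramble livers and 275, 322 and 317 CPM in the knockdown livers. Its groups missed overlapping by a small margin, 324 against 322 CPM (log2 fold change -0.24 ± 0.15 (SE), adjusted p = 0.386 in edgeR), and overlapped on FPKM.

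Among the 5 mitochondrial enzymes of hydration, dehydrogenation and thiolysis, Hadh differed most. Hadh, the hydroxyacyl-CoA dehydrogenase for short chains, measured 272, 226 and 263 CPM in the scramble livers and 111, 178 and 195 CPM in the knockdown livers. All knockdown livers were below all scramble livers, knockdown liver 1 by the widest margin (log2 fold change -0.66 ± 0.21 (SE), adjusted p = 0.106 in edgeR), and FPKM means were 134 and 92.9 FPKM. Its rank by FPKM among the 34 went from 7 to 14. The trifunctional protein, which handles long chains, has 2 subunits. Hadha measured 470.3, 386 and 362 CPM in the scramble livers and 325, 389 and 339 CPM in the knockdown livers. Hadhb measured 189, 143 and 152 CPM in the scramble livers and 146, 166 and 143 CPM in the knockdown livers. Both overlapped, at log2 fold changes of -0.21 and -0.09 (adjusted p = 0.451 and 0.756 in edgeR). Acaa2, the thiolase and the member with the highest FPKM in the scramble livers, measured 532, 578 and 577 CPM in the scramble livers and 476, 614 and 558 CPM in the knockdown livers, a log2 fold change of -0.03 (adjusted p = 0.919 in edgeR). Echs1, the short-chain enoyl-CoA hydratase, measured 144, 167 and 173 CPM in the scramble livers and 144, 205 and 187 CPM in the knockdown livers and overlapped as well (log2 fold change 0.15 ± 0.16 (SE), adjusted p = 0.628 in edgeR), whereas on FPKM all knockdown livers were higher (means 103 and 126 FPKM).

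The electron transfer step held 2 of its 3 genes lower in every knockdown liver, against 16.8% of all tested genes. A share of only 3 genes cannot be told from that of all genes here. Etfb, the beta subunit of the electron transfer flavoprotein, measured 223, 193 and 209 CPM in the scramble livers and 125, 166 and 165 CPM in the knockdown livers (log2 fold change -0.45 ± 0.15 (SE), adjusted p = 0.105 in edgeR). Etfdh, which passes those electrons to ubiquinone, measured 283, 252 and 258 CPM in the scramble livers and 148, 202 and 213 CPM in the knockdown livers (log2 fold change -0.50 ± 0.16 (SE), adjusted p = 0.106 in edgeR). Neither passed the edgeR test, and for both the groups were also apart on FPKM, with means of 219 and 176 FPKM for Etfb and of 109.7 and 85.5 FPKM for Etfdh. Etfa, the alpha subunit that pairs with Etfb in one protein, measured 249, 259 and 265 CPM in the scramble livers and 217, 299.6 and 277 CPM in the knockdown livers and overlapped (log2 fold change 0.04, adjusted p = 0.906 in edgeR). For Slc25a20, Crat, Acadvl, Hadh, Decr2, Etfb, Etfdh and Vnn1, the DESeq2 Wald test gave an adjusted p under 0.05 where the edgeR test did not, from 0.00288 for Acadvl to 0.0385 for Etfb. With Crot this made 9 DESeq2 calls among the 34 (26.5%), 2 higher and 7 lower, against 12.0% of all tested genes.

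**Figure D2:**
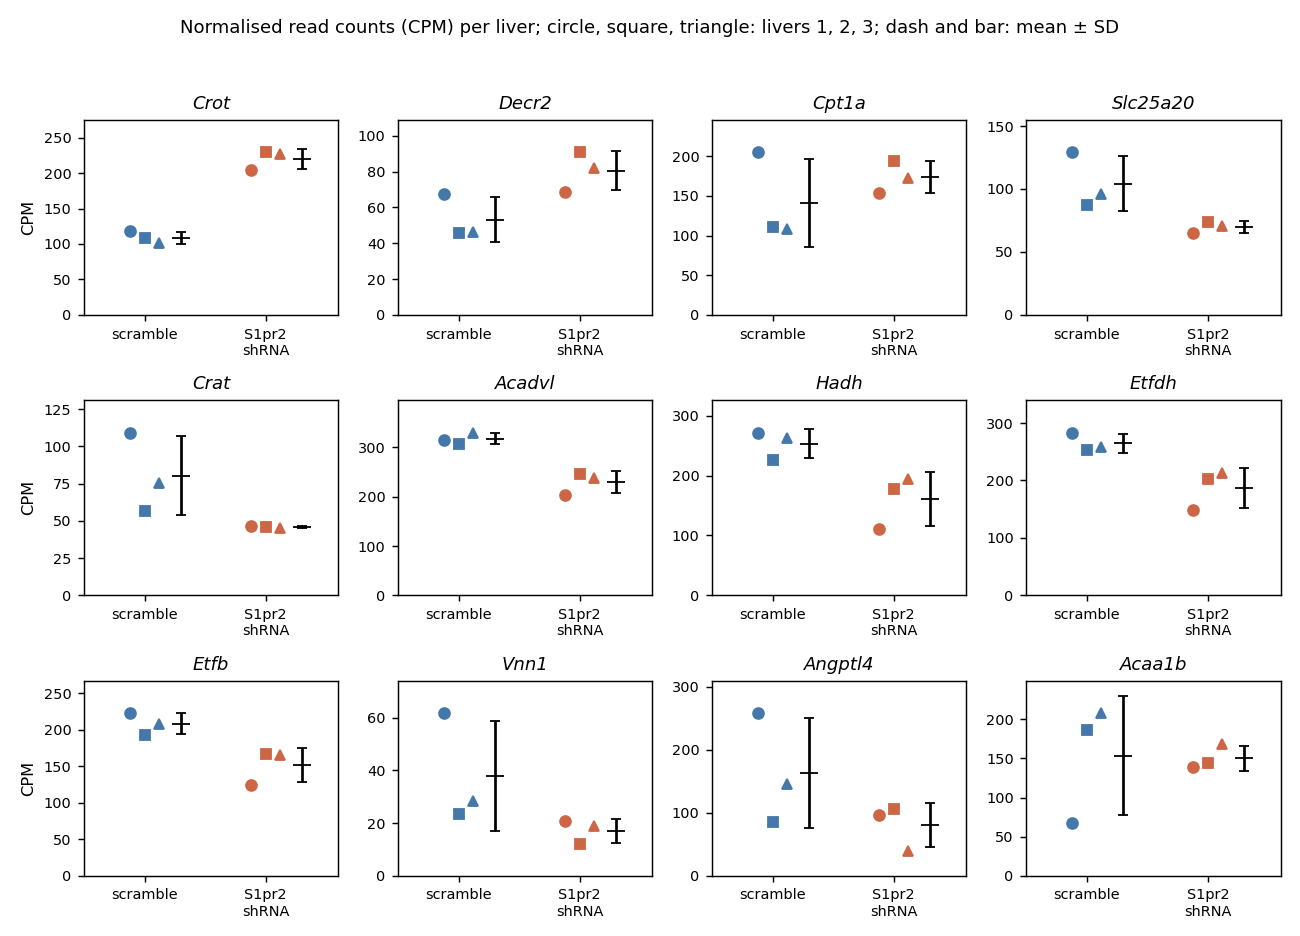
TMM-scaled CPM of 12 members, 1 point per liver, with the mean and SD of each group of 3; each panel has its own linear axis from 0. For Crot the knockdown livers stand at 204 to 229 CPM and the scramble livers at 101 to 118 CPM.

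The enzymes that prepare double bonds of unsaturated chains gave mixed values besides Decr2. Decr1, the mitochondrial dienoyl-CoA reductase, measured 227, 169 and 170.5 CPM in the scramble livers and 125, 161 and 148 CPM in the knockdown livers. Its knockdown livers all lay below its scramble livers, the highest at 161 and the lowest at 169 CPM (log2 fold change -0.38 ± 0.16 (SE), adjusted p = 0.195 in edgeR), but overlapped them on FPKM. The enoyl-CoA isomerase Eci1 measured 158, 117 and 122 CPM in the scramble livers and 105, 145 and 122 CPM in the knockdown livers (log2 fold change -0.09 ± 0.17 (SE), adjusted p = 0.787 in edgeR). A second isomerase, Eci2, measured 214, 154 and 172 CPM in the scramble livers and 169, 189 and 158 CPM in the knockdown livers (log2 fold change -0.06 ± 0.15 (SE), adjusted p = 0.844 in edgeR). The groups of both overlapped.

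The 5 other peroxisomal members, enzymes and an importer, had a median log2 fold change of -0.03 and none passed the test. Hsd17b4, the D-bifunctional protein of branched and very long chains, measured 614, 451 and 484 CPM in the scramble livers and 375, 404 and 399 CPM in the knockdown livers. The knockdown livers all lay below the scramble livers and within 28.5 CPM of each other (log2 fold change -0.40 ± 0.16 (SE), adjusted p = 0.165 in edgeR). Abcd3, a transporter of acyl-CoA into peroxisomes, measured 404, 345 and 302 CPM in the scramble livers and 233, 289 and 292 CPM in the knockdown livers, also apart (log2 fold change -0.37 ± 0.16 (SE), adjusted p = 0.208 in edgeR). On FPKM neither kept its groups apart. Ehhadh, the L-bifunctional protein, measured 134, 131 and 152 CPM in the scramble livers and 166, 153 and 128 CPM in the knockdown livers and overlapped (log2 fold change 0.10, adjusted p = 0.716 in edgeR).

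The peroxisomal thiolases Acaa1a and Acaa1b are near-identical copies, and both had fractional expected counts in all 6 libraries, so their split is uncertain. Acaa1a measured 67.0, 64.6 and 56.3 CPM in the scramble livers and 62.1, 94.2 and 79.9 CPM in the knockdown livers (log2 fold change 0.33 ± 0.16 (SE), adjusted p = 0.25 in edgeR). Acaa1b measured 67.0, 186 and 208 CPM in the scramble livers and 139, 144 and 169 CPM in the knockdown livers, with scramble liver 1 at 0.359 and 0.322 times the other scramble livers (log2 fold change -0.03 ± 0.40 (SE), adjusted p = 0.972 in edgeR). The groups overlapped for both on CPM, whereas on FPKM Acaa1a was higher in every knockdown liver (means 33.8 and 46.7 FPKM). The ketone body enzymes also overlapped on CPM. Bdh1, which interconverts acetoacetate and hydroxybutyrate, measured 54.2, 63.0 and 61.4 CPM in the scramble livers and 62.1, 74.0 and 90.5 CPM in the knockdown livers (log2 fold change 0.34 ± 0.15 (SE), adjusted p = 0.201 in edgeR). On FPKM Bdh1 was higher in every knockdown liver (means 18.0 and 25.2 FPKM). Acat1, the mitochondrial acetoacetyl-CoA thiolase, measured 295, 341 and 323 CPM in the scramble livers and 268, 402 and 356 CPM in the knockdown livers (log2 fold change 0.10, adjusted p = 0.783 in edgeR).

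The 4 fasting-response genes were the step with the widest spread between livers, with a median SD of 48.0% of the mean in the scramble livers, against 15.3% over all 34 members. Vnn1, a pantetheinase and PPARA target, measured 61.8, 23.4 and 28.4 CPM in the scramble livers and 20.6, 12.0 and 18.7 CPM in the knockdown livers. The highest knockdown liver was below the lowest scramble liver, but scramble liver 1 was 2.64 and 2.17 times the other scramble livers (log2 fold change -1.14 ± 0.42 (SE), adjusted p = 0.162 in edgeR). On FPKM the groups overlapped. With a replicate block the adjusted p was 0.0459, and with 1 liver left out it ranged from 0.114 to 0.362 in edgeR. Angptl4, a secreted inhibitor of lipoprotein lipase, measured 258, 85.2 and 145 CPM in the scramble livers and 96.02, 106 and 39.9 CPM in the knockdown livers, with groups that overlapped (log2 fold change -1.01 ± 0.52 (SE), adjusted p = 0.304 in edgeR). Fgf21, a hormone of the fasted liver, measured 7.05, 16.4 and 17.6 CPM in the scramble livers and 17.1, 13.04 and 7.73 CPM in the knockdown livers, overlapping almost fully (log2 fold change -0.11, adjusted p = 0.907 in edgeR). Pdk4, which restrains pyruvate dehydrogenase in fasting, measured 7.35, 4.73 and 6.66 CPM in the scramble livers and 9.61, 5.57 and 7.44 CPM in the knockdown livers (log2 fold change 0.27, adjusted p = 0.548 in edgeR). At 1.71 and 2.31 FPKM in the respective groups, Pdk4 was the member with the lowest level per length. In scramble liver 1, glucocorticoid target genes summed to 7855 CPM, against 2712 and 3296 CPM in the other scramble livers and 2227, 1988 and 1580 CPM in the knockdown livers. Of those 14 genes, Dusp1 fell (89.3 to 22.1 CPM, adjusted p = 0.0118 in edgeR, 0.0602 with a replicate block, 0.0600 without knockdown liver 2), and the list median was -1.19. The share called was 7.14%, against 7.66% of all tested genes. The part of the difference in glucocorticoid targets in the values of Vnn1, Angptl4 and Cpt1a was not tested.

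**Figure D3:**
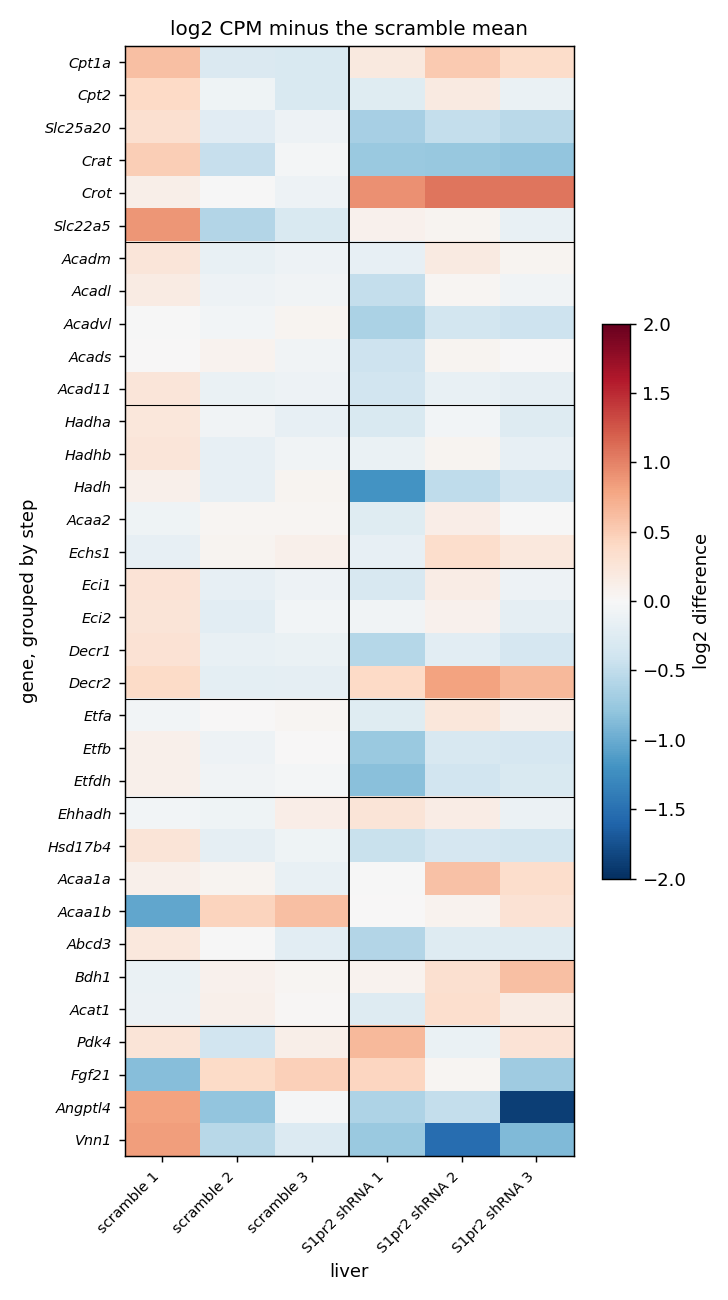
Log2 CPM of the 34 members in each liver minus the mean of the scramble livers for that gene, ordered by step; colours span -2 to 2. Scramble liver 1 is the highest scramble liver in 24 of the 34 genes and knockdown liver 1 the lowest knockdown liver in 25.

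Across the members, scramble liver 1 was the highest of its group in 24 of the 34 genes, and scramble liver 2 the lowest in 20. Knockdown liver 1 was the lowest of its group in 25 and knockdown liver 2 the highest in 23. Summed over the 34 genes, the livers held 7182, 6096 and 6285 CPM with the scramble hairpin and 5178, 6435 and 5985 CPM with the S1pr2 hairpin, so the sums overlapped. Knockdown liver 1, with the lowest sum, was also the liver with the lowest hepatocyte marker sum and the highest TMM factor, 1.154. CPM are divided by that factor, so a high factor lowers both sums, and these are not separate observations.

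Ratios of 2 members' expected counts within a liver do not depend on library scaling. The 8 pairs were chosen after the values were seen and are given without a test. Decr2 to Decr1, the peroxisomal over the mitochondrial reductase, was 0.298, 0.270 and 0.271 with the scramble hairpin and 0.548, 0.564 and 0.555 with the S1pr2 hairpin. All knockdown livers were above all scramble livers, and the mean was 1.99 times that of the scramble livers. The fractional counts of Decr2 leave this ratio uncertain in its level. Crot to Crat was 1.08, 1.91 and 1.34 against 4.40, 4.98 and 5.07, a mean 3.34 times as high. Etfb to Etfa, the 2 subunits of one flavoprotein, was 0.895, 0.748 and 0.788 against 0.575, 0.556 and 0.595, or 71.0% of the scramble mean. The groups did not overlap for that pair. Cpt1a to Cpt2 was 1.25, 0.939 and 1.08 against 1.46, 1.38 and 1.52, apart as well. Hadhb to Hadha, the trifunctional protein subunits, was 0.403, 0.370 and 0.421 against 0.449, 0.428 and 0.421, nearly level in the last liver of each group. Crot to Cpt2 was 0.719, 0.923 and 1.00 against 1.94, 1.63 and 2.01. Hadh to Hadha was 0.578, 0.584 and 0.728 against 0.340, 0.457 and 0.575, apart by a small margin. Acaa1b to Acaa1a was 1.00, 2.89 and 3.69 against 2.23, 1.53 and 2.11, and its groups overlapped. Because the values guided the choice of pairs, how many of the 8 had groups apart is not a result.

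**Figure D4:**
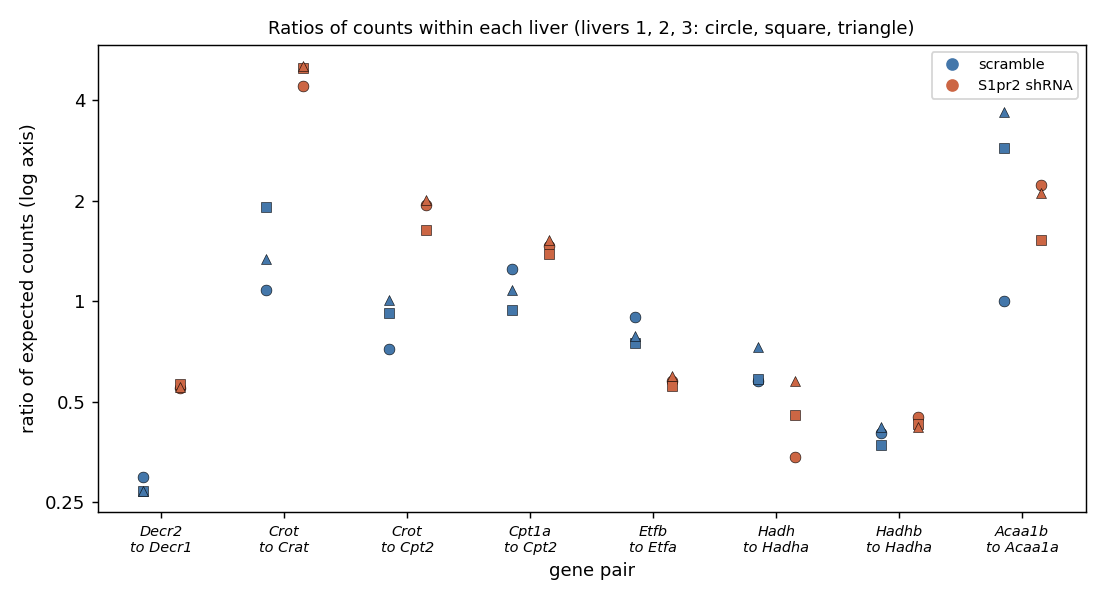
Ratios of expected counts of 2 members within each liver, 1 point per liver, on a log axis. Decr2 to Decr1 lies between 0.270 and 0.298 in the scramble livers and between 0.548 and 0.564 in the knockdown livers.

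Genes of the same pathway outside the 34 were read from lists by function. Over all tested genes, 7.66% were called, 3.02% higher and 4.64% lower. In lists this short, 1 or 2 calls cannot be told from those shares. Of 20 further mitochondrial oxidation genes tested, Echdc3 rose (mean CPM 60.1 to 84.7, adjusted p = 0.0484 in edgeR) and Pcca, a subunit of propionyl-CoA carboxylase, fell (113 to 74.1 CPM, adjusted p = 0.0433), with a list median of 0.16. None of 17 further peroxisomal oxidation genes passed. Phyh, which starts the breakdown of phytanic acid, went from a mean of 2196 to 3403 CPM (adjusted p = 0.116 in edgeR and 0.0135 in DESeq2). Amacr, a racemase of branched chains, went from 91.0 to 119.8 CPM (adjusted p = 0.0653 in edgeR and 0.0156 in DESeq2). Of 16 peroxisome biogenesis genes, Pex19 fell (102 to 67.1 CPM, adjusted p = 0.0266 in edgeR). None of 7 further ketone body genes passed, with Slc16a7, a monocarboxylate transporter (81.3 to 62.3 CPM, adjusted p = 0.224 in edgeR), and Aacs, acetoacetyl-CoA synthetase (81.3 to 43.3 CPM, adjusted p = 0.3), having the smallest p. With 1 liver left out, the adjusted p ranged from 0.0237 to 0.175 for Echdc3, from 0.0461 to 0.111 for Pcca and from 0.0448 to 0.0934 for Pex19. Echdc3 and Pcca kept their calls only without knockdown liver 1, and Pex19 only without scramble liver 2.

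Upstream of the shuttle, 2 of 12 genes of fatty acid uptake and activation (16.7%) fell, against 4.64% of all tested genes, and none rose. Cd36, a fatty acid transporter, measured 325, 139 and 155 CPM in the scramble livers and 42.6, 30.6 and 63.2 CPM in the knockdown livers (adjusted p = 0.0351 in edgeR), and Acsl5, an acyl-CoA synthetase, went from a mean of 339.9 to 212 CPM (adjusted p = 0.0293). With 1 liver left out, the adjusted p ranged from 0.0398 to 0.115 for Cd36 and from 0.0466 to 0.106 for Acsl5. Cd36 kept its call only without scramble liver 1 or 2, and Acsl5 only without scramble liver 2. Of 18 regulators, Acaca and Acacb fell (11.1%, against 4.64% of all tested genes). These are the acetyl-CoA carboxylases, whose product malonyl-CoA inhibits Cpt1a. Acaca measured 301, 473 and 422 CPM in the scramble livers and 146, 109 and 174 CPM in the knockdown livers (log2 fold change -1.48 ± 0.23 (SE), adjusted p = 0.0118 in edgeR). Acacb measured 128, 104 and 113 CPM in the scramble livers and 54.4, 39.0 and 34.4 CPM in the knockdown livers (log2 fold change -1.43 ± 0.18 (SE), adjusted p = 0.00671 in edgeR). The groups stood far apart for both. The receptor Ppara (mean 88.7 to 96.8 CPM) and the coactivator Ppargc1a (12.8 to 11.8 CPM) did not pass, at adjusted p = 0.822 and 0.861 in edgeR.

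Of 17 further PPARA target genes tested, Acot1, an acyl-CoA thioesterase, rose (19.9 to 44.3 CPM, adjusted p = 0.00633 in edgeR) and Txnip fell (168 to 71.3 CPM, adjusted p = 0.0113), and the list median was -0.30. The share called was 11.8%, against 7.66% of all tested genes. Acot1 had fractional counts in all 6 libraries and close copies in its family, so its split is uncertain. Of 8 tested genes of pyruvate dehydrogenase and its regulators, Pdhx (50.4 to 23.5 CPM, adjusted p = 0.00531 in edgeR) and Pdhb (235 to 159 CPM, adjusted p = 0.0481), both subunits of the complex, fell. Pdhb kept its call only without scramble liver 1 (adjusted p of 0.0398, up to 0.155 without another liver). Acot1, Txnip and Pdhx, like Acaca and Acacb, passed in all 16 alternatives. None of 17 citric acid cycle genes passed the test, with Fh1 (163 to 121 CPM, adjusted p = 0.232 in edgeR) and Sucla2 (112 to 94.4 CPM, adjusted p = 0.247) having the smallest p.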

How the data were processed

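RNA of 3 scramble and 3 knockdown livers was compared. Per the submitters' processing notes, the tools were RSEM 1.2.12, Bowtie2, HISAT2 and DESeq2 on the mouse build mm9; the sources used here do not state their roles, the read filters or the strand handling. The authors deposited an expected count and an FPKM for each gene. FPKM is scaled to length and mapped fragments. Genes without a symbol (19 to 23 a library, 0.204 to 0.255% of counts) were kept under their ID. Expected counts were rounded and tested in R 4.3.3 with edgeR 4.0.16 (TMM, filterByExpr at a minimum count of 10, robust quasi-likelihood F test, two-sided, group as the only factor), with Benjamini-Hochberg adjustment over all 12230 genes and a threshold of 0.05. Replicate libraries all differed beyond counting noise. Alternatives used DESeq2 1.42.0, limma 3.58.1, other scalings and filters, log2(FPKM + 0.1) and log2(FPKM + 1), a replicate block and each liver left out. The 34 members and all lists were chosen with earlier results of these data known. Named genes were all members, S1pr2, the members of other lists past the test (at most 6 by p), up to 2 by p in lists without one, and Ppara and Ppargc1a; 2 further genes that the rule names are not reported here. Opposite-strand overlaps came from GENCODE M21. The shRNA sequence and proteins were not analysed here.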

Additional observations from a re-analysis of the deposited data

How the results depend on the processing

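Crot passed the test in all 16 alternatives (adjusted p from edgeR, DESeq2 or limma at most 0.0317), and 22 of the 34 members kept their sign in all of them. The number of members past the threshold, 1 in the edgeR fit, was 9 with the DESeq2 Wald test and 2 with upper-quartile factors, log2(FPKM + 0.1) and log2(FPKM + 1), Decr2 being the second, and 1 to 3 with a liver left out. Over all genes, 937 passed, against 1466 with DESeq2 and 231 to 643 with a liver left out. The share of calls that were lower, 60.6%, was 48.5% with upper-quartile factors and 30.4% and 30.6% on the 2 FPKM scales. Deviations of same-numbered samples from their group means correlated at -0.06, 0.22 and -0.12. With 3 samples a group, these values cannot show whether the replicate numbers mark a pairing. With the replicate block 808 genes and 2 members, Crot and Vnn1 (log2 fold change -1.06), passed. S1pr2 lost its call with the block, on both FPKM scales and in 4 of the 6 fits with a liver left out. Some log2 fold changes changed sign, none past the threshold in either direction, and the cause was not tested. On log2(FPKM + 0.1) they were 0.081 (Cpt2), 0.15 (Slc22a5), 0.034 (Acads), 0.066 (Hadhb), 0.11 (Acaa2), 0.057 (Eci1), 0.10 (Eci2), 0.27 (Acaa1b), 0.070 (Fgf21) and 0.025 (Ppargc1a). On log2(FPKM + 1) they were 0.079 (Cpt2), 0.11 (Slc22a5), 0.034 (Acads), 0.065 (Hadhb), 0.11 (Acaa2), 0.056 (Eci1), 0.10 (Eci2), 0.27 (Acaa1b), 0.064 (Fgf21) and 0.011 (Ppargc1a). With limma-voom they were 0.00081 (Slc22a5) and 0.13 (Acaa1b). With upper-quartile factors they were 0.028 (Acaa2), 0.0026 (Eci2) and 0.017 (Acaa1b). With the replicate block that of Acaa1b was 0.12. With 1 liver left out the values spanned -0.23 to 0.14 (Cpt2), -0.41 to 0.44 (Slc22a5), -0.063 to 0.15 (Acadm), -0.19 to 0.031 (Acads), -0.18 to 0.039 (Hadhb), -0.12 to 0.058 (Acaa2), -0.22 to 0.053 (Eci1), -0.18 to 0.077 (Eci2), -0.060 to 0.16 (Etfa), -0.39 to 0.25 (Acaa1b), -0.035 to 0.24 (Acat1), -0.42 to 0.14 (Fgf21), -0.081 to 0.33 (Ppara) and -0.41 to 0.20 (Ppargc1a).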
